A study of Rattus norvegicus with 14 samples.

Results

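The large heat shock chaperones examined here were Hspa8, Hspa4 and Hsph1 of the cytosolic Hsp70 and Hsp110 families, their J-domain partners Dnaja1 and Dnajb1, the cytosolic Hsp90 genes Hsp90aa1 and Hsp90ab1, and the mitochondrial chaperones Hspa9, Hspd1 and Hspe1. The members were the 10 genes of this list by symbol, and a probe was taken as theirs when its transcript accession mapped to that symbol in rat RefSeq. On the arrays, 16 probes matched 9 of the 10 genes, and Dnajb1 had no matched probe. All 16 probes were well above background on all 6 exposed and all 8 sham arrays, and no spot on any array was saturated. The 9 genes stand among 18611 genes measured in the series, of which 11315 have a symbol.

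Skin was taken from male CD hairless rats that over 5.5 months had spent 3 h a day, 3 days a week, under millimetre waves of 94 GHz (6 exposed animals) or had been sham exposed (8 animals). One array was run per animal, all animals carried the same strain label, and the labels give no age. The study kept 30 rats, 2 to a cage. The labels do not say which of the 14 animals were cage mates, and the p-values take animals to be independent. The RNA came from whole skin pieces, in which fewer cells of a type and less RNA per cell cannot be told apart. Arrays lay on 4 slides. Slide 1 held sham animals 1 and 2, slide 2 held exposed animals 1 and 2, slide 3 held exposed animals 3 to 5 and sham animals 3 to 5, and slide 4 held exposed animal 6 and sham animals 6 to 8. Numbers only name the animals of a group.

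Chaperones of these families bind unfolded or partly folded proteins and help them to fold, to reach their compartment or to be degraded. Hsp70 proteins hold a client in a cycle of ATP hydrolysis that J-domain proteins start and that nucleotide exchange factors, among them the Hsp110 proteins, end, and Hsp90 takes over clients such as kinases and steroid receptors at a later step. In heat-stressed cells the factor HSF1 binds repeated GAA units, called heat shock elements, in the promoters of many of these genes and raises their transcription. Several of them are abundant without stress, also in keratinocytes of the epidermis.

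Since heat shock elements are the control sequence by which these genes are known, the stretches that hold 3 or more units in a row are shown here. RefSeq promoter windows of build GRCr8, from 250 bases before to 50 bases after the start of a gene, were given for 9 of the 10 genes, Hsp90aa1 being the other one. The motifs searched were GAANNTTC and TTCNNGAA for 2 units, and GAANNTTCNNGAA and TTCNNGAANNTTC for 3 units. The 2-unit motifs are their own reverse complements and the 3-unit motifs are each other's, so both strands were covered, and a stretch of 3 units holds overlapping 2-unit matches. Capitals mark the GAA and TTC units, and each sequence reads 5′ to 3′ on the strand of its gene.
Hspa8, distal site: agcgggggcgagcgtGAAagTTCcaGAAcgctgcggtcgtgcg
Hspa8, proximal site: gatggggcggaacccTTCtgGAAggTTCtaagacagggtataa
Hsph1: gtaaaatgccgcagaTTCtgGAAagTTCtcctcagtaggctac
Dnaja1: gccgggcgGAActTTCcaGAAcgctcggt
Hspd1: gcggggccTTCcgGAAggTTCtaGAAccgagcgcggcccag
Hspe1: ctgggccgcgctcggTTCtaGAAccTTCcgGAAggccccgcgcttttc
The Hspa8 stretches lie at chr8:50080286-50080328 and chr8:50080444-50080486 on the plus strand, with units at bases -213 to -201 and -55 to -43 relative to the start site. Hsph1 has its units at bases -36 to -24 (chr12:10427317-10427359, plus strand). In Dnaja1 the units lie within the transcript, at bases 10 to 22 (chr5:60638405-60638433, plus strand). Hspd1, which encodes the mitochondrial chaperonin Hsp60, and Hspe1, which encodes its lid Hsp10, are read away from each other on chromosome 9 with 289 bases between their start sites. They share 1 stretch of 4 units, printed once from each strand: it lies at bases -242 to -225 of Hspd1 (chr9:64084247-64084287, minus strand) and at bases -65 to -48 of Hspe1 (chr9:64084247-64084294, plus strand).

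Windows of Hspa9 and Dnajb1 held only matches of 2 units, and those of Hspa4 and Hsp90ab1 held no match. Of 33469 rat promoter windows of the same length, 15.85% held at least 2 units and 0.8% held 3. A match describes the letters only and is not a measured site of binding. The map of motif matches gives their positions.

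**Figure D1:**
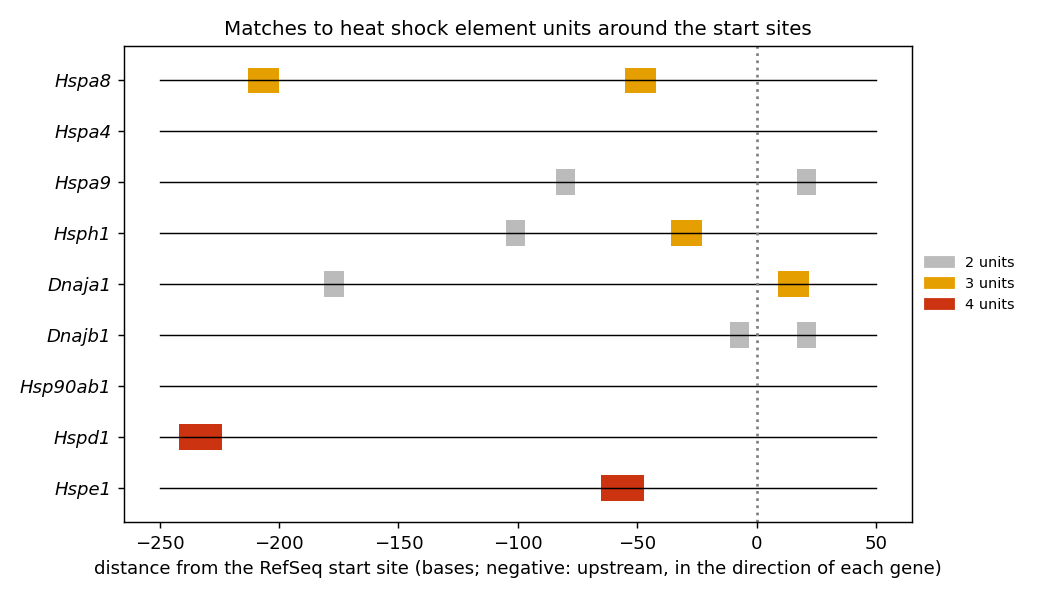
Matches to heat shock element units in the RefSeq promoter windows of 9 chaperone genes, by distance in bases from the start site in the direction of each gene, with colour for the number of units in a row. Hspa8 holds 2 stretches of 3 units, Hsph1 and Dnaja1 hold 1 each, and the 4-unit stretch of Hspd1 and that of Hspe1 are the same DNA.

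The comparison asked whether chronic exposure altered transcript levels in skin. The 75th percentile of the processed signal, by which each array was scaled, lay between 1075 and 1966 scanner units in exposed arrays and between 804.5 and 1967 in sham arrays. Sham animal 6 gave the lowest of these values. Its array also correlated least with the others across genes (median r 0.977, against 0.983 to 0.989 for the other 13 arrays), and results that rest on it are given with and without it. Markers fitted the labelled tissue: the basal keratins Krt14 (7.02 ± 0.15 in exposed, 7.08 ± 0.18 in sham, SD, n = 6 and 8) and Krt5 (5.11 ± 0.16 in exposed, 5.17 ± 0.40 in sham) and the dermal collagen Col1a1 (7.25 ± 0.38 in exposed, 7.42 ± 0.33 in sham) lay far above the 75th percentile, in log2 units. Muscle and hair varied far more between pieces of skin. Muscle creatine kinase Ckm was at -0.50 ± 2.61 in exposed and -2.14 ± 2.91 in sham animals, and the inner root sheath keratin Krt25 at 5.79 ± 1.02 in exposed and 5.05 ± 1.10 in sham animals. All 10 measured skeletal muscle markers and all 10 measured hair follicle markers were higher in the mean of exposed animals, beside 43% of all genes. So were all 6 proliferating cell and all 5 adipocyte markers, though sham animal 6 had the lowest adipocyte score (-1.16). Lower were 6 of 7 macrophage and dendritic cell, 5 of 6 epidermal keratinocyte and 5 of 6 dermal fibroblast markers. Also lower were 5 of 7 T cell and 4 of 7 sebaceous gland markers. The macrophage and dendritic cell score had medians of 0.11 in exposed and 0.02 in sham animals, exposed animal 3 being lowest (-0.80). Markers of 1 list share the same animals, so they are not independent. None of the markers passed the adjusted threshold. The proliferating cell score was -0.17, 0.09 and 0.28 (lowest, median, highest) in exposed animals and -0.43, 0.00 and 0.11 in sham animals.

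None of the 9 chaperone genes differed between exposed and sham skin at an adjusted p under 0.05, and neither did any other gene, so that the share of genes called was 0%. By the mean, 7 of the 9 genes were higher and 2 were lower in exposed skin, while 43% of all genes were higher. The median difference of the 9 genes was 0.11 on the log2 scale, against -0.02 over all 18611 genes. The median of the 9 was 0.05 without sham animal 6 or without exposed animal 1, 0.06 without exposed animal 3 and 0.05 with slide as a block, against -0.01, -0.03, -0.02 and -0.03 over all genes. With the unadjusted p of the same limma test, 1 of the 9 genes, Hspa4, was under 0.05, beside 3.42% of all genes. Exposed and sham animals overlapped for every one of the 9 genes, as for all but 0.0322% of the genes measured. All values below are log2 signals of 1 probe relative to the 75th percentile of its array, differences are exposed minus sham with the standard error of the limma fit, and the adjusted p of each of the 9 genes was 0.9996.

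**Figure D2:**
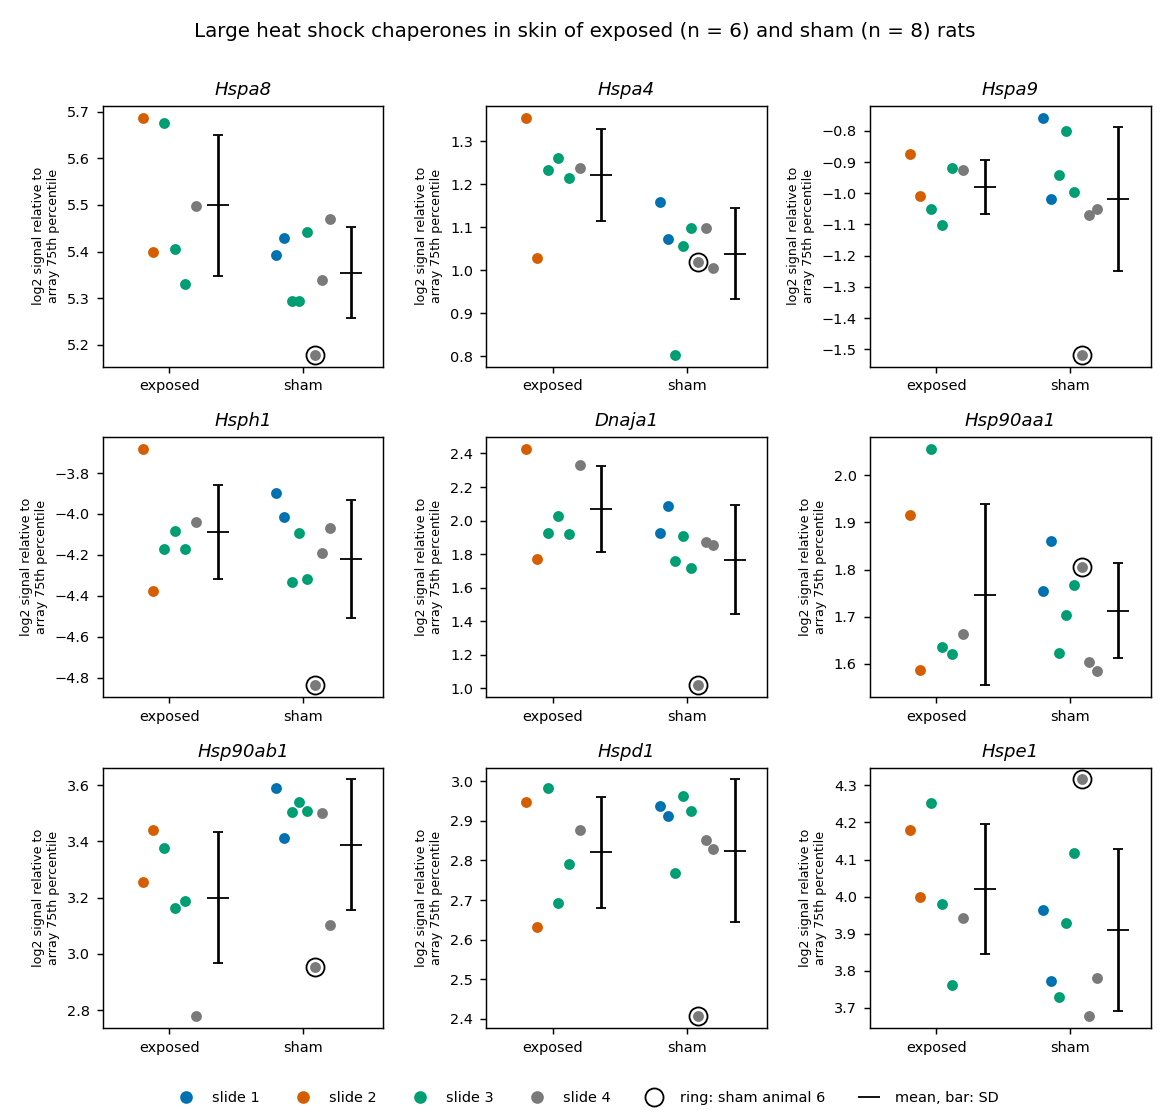
Log2 signal relative to the array 75th percentile for the 9 measured chaperone genes, 1 point per animal, exposed (n = 6) left of sham (n = 8), with colour for the slide, a ring around sham animal 6 and bars for mean and SD. The groups overlap in every panel, and 5 of the 6 exposed animals lie above all sham animals for Hspa4.

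Hspa8 encodes Hsc70, the constitutive cytosolic Hsp70. Its signal had a lowest value of 5.33, a median of 5.45 and a highest value of 5.69 in exposed animals, against 5.18, 5.37 and 5.47 in sham animals. The 3 highest values belonged to exposed animals, and the other 3 exposed animals lay within the sham range. The difference was 0.14 ± 0.07 (95% interval -0.02 to 0.30, unadjusted p = 0.0745, limma), or 1.11-fold.

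Hspa4, an Hsp110-type nucleotide exchange factor of Hsp70, had the smallest residual spread among the 9 genes. Exposed animals ranged from 1.03 through a median of 1.23 to 1.35, and sham animals from 0.80 through 1.06 to 1.16. Of the 6 exposed animals, 5 lay above every sham animal, and exposed animal 2 lay below the sham median. Sham animal 3 was the lowest of all. The difference of 0.18 ± 0.07 (95% interval 0.04 to 0.33) corresponded to 1.13-fold with a 95% interval of 1.02 to 1.26, an unadjusted p of 0.0184 and an adjusted p of 0.9996 in limma. It was 0.18 without sham animal 6, 0.25 within slide 3 and 0.20 within slide 4.

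Hsph1 encodes Hsp105, an Hsp110 protein that is inducible by heat. It gave a dim probe, with values of -4.37, -4.13 and -3.68 (lowest, median, highest) in exposed animals and -4.84, -4.14 and -3.90 in sham animals. Exposed animal 1 had the highest value and sham animal 6 the lowest, and the medians lay close together. The difference was 0.13 ± 0.14 (95% interval -0.16 to 0.43, unadjusted p = 0.351, limma) and came to 0.05 when sham animal 6 was left out, as when exposed animal 1 was.

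Dnaja1 encodes a J-domain protein that delivers clients to Hsc70. Values were 1.77, 1.98 and 2.43 (lowest, median, highest) in exposed animals and 1.02, 1.86 and 2.09 in sham animals. Exposed animals 1 and 6 lay above every sham animal, while sham animal 6 lay far below all others. The mean difference of 0.30 ± 0.15 (95% interval -0.03 to 0.63, unadjusted p = 0.0699, limma) was the highest of the 9 genes. It was 0.19 without sham animal 6 and 0.17 within slide 3, against 0.75 within slide 4, which holds sham animal 6 and a single exposed animal.

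Hsp90aa1, the heat-inducible cytosolic Hsp90, gave 1.59, 1.65 and 2.06 (lowest, median, highest) in exposed animals and 1.58, 1.73 and 1.86 in sham animals. Exposed animals 1 and 3 were the highest of all, and the other 4 lay in the lower part of the sham range, so that the exposed median was below the sham median although the mean difference was 0.03 ± 0.08 (95% interval -0.15 to 0.22, unadjusted p = 0.697, limma).

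Hsp90ab1, the constitutive cytosolic Hsp90, was the gene with the lowest difference. Its values were 2.78, 3.22 and 3.44 (lowest, median, highest) in exposed animals and 2.95, 3.50 and 3.59 in sham animals. Exposed animal 6 had the lowest value, sham animals 6 and 8 came next, and these 3 animals share slide 4. The other 6 sham animals lay between 3.41 and 3.59, and the exposed animals of slides 2 and 3 between 3.16 and 3.44. The difference was -0.19 ± 0.12 (95% interval -0.45 to 0.07, unadjusted p = 0.147, limma). It was -0.10 without exposed animal 6 (unadjusted p = 0.377, limma), -0.12 as the mean of both probes, -0.25 without sham animal 6, and -0.32 with slide as a block (95% interval -0.57 to -0.07, unadjusted p = 0.0168, adjusted p = 0.9996, limma). The blocked difference comes only from slides 3 and 4, which gave -0.27 and -0.41 by themselves. Exposed animal 6 is the single exposed animal of slide 4.

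The mitochondrial chaperones had intervals that include 0. Hspa9, which encodes mortalin, the Hsp70 of the mitochondrial matrix, had values of -1.10, -0.97 and -0.87 (lowest, median, highest) in exposed animals and -1.52, -1.01 and -0.76 in sham animals. The exposed animals lay inside the sham range, of which sham animal 6 was the low end and the other 7 sham animals lay between -1.07 and -0.76. The difference was 0.04 ± 0.10 (95% interval -0.18 to 0.26, unadjusted p = 0.703, limma), and -0.03 without sham animal 6.

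Hspd1 had values of 2.63, 2.83 and 2.98 (lowest, median, highest) in exposed animals and 2.41, 2.88 and 2.96 in sham animals. Sham animal 6 was the low end, and the other 7 sham animals lay between 2.77 and 2.96, inside the exposed range. The difference was 0.00 ± 0.09 (95% interval -0.20 to 0.19, unadjusted p = 0.967, limma), and -0.06 without sham animal 6. For Hspe1, the values were 3.76, 3.99 and 4.25 in exposed animals and 3.68, 3.86 and 4.32 in sham animals. Sham animal 6, lowest for Hspd1, was highest for Hspe1. The difference of Hspe1 was 0.11 ± 0.11 (95% interval -0.12 to 0.34, unadjusted p = 0.333, limma). It was 0.06 without exposed animal 3, 0.17 without sham animal 6, 0.07 on slide 3 alone, 0.02 on slide 4 alone and 0.05 when blocked by slide.

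For the probe used and the fit over all 14 arrays, the 95% intervals bound how large a difference the data leave room for. They lay inside a 1.5-fold change in either direction for 8 of the 9 genes, Dnaja1 being the exception. All 9 lay inside a 2-fold change. On the dimmer Hspa8 probes A_64_P096381 and A_64_P014723 the intervals reached past 1.5-fold (-0.43 to 0.67 and -0.44 to 0.67, log2). Over all genes, 80.3% of the intervals lay inside 1.5-fold and 94.7% inside 2-fold. The plot of differences shows the intervals of the probes used, with the values without sham animal 6 and by slide.

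**Figure D3:**
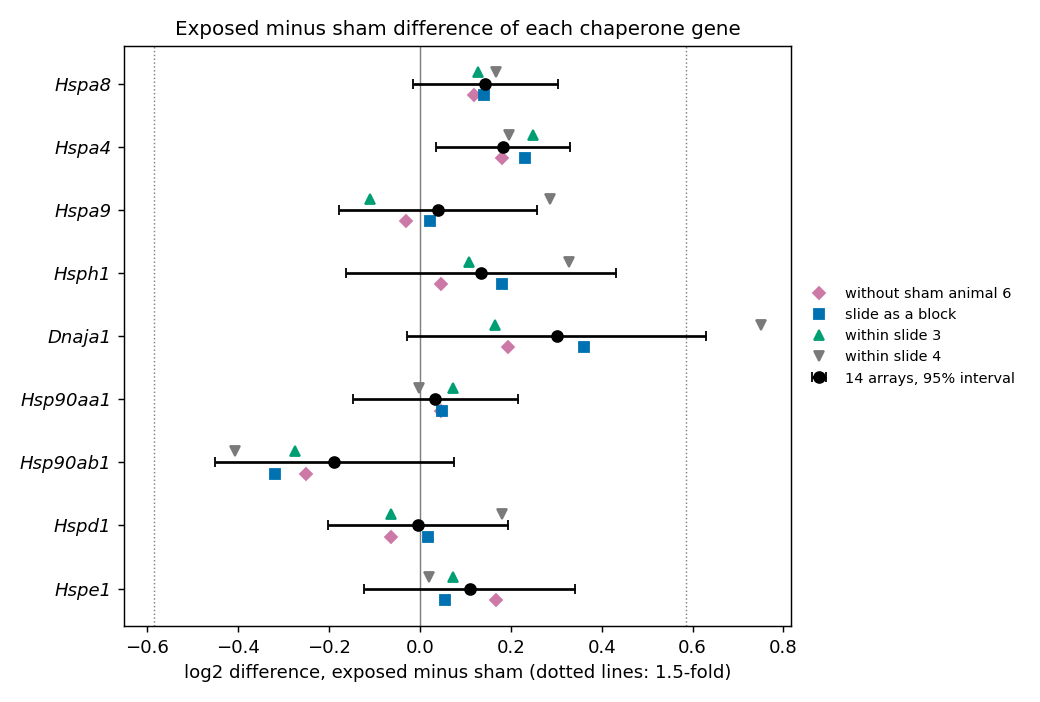
Exposed minus sham difference of each chaperone gene on the log2 scale: black points and bars give the estimate over 14 arrays with its 95% interval, coloured marks the estimate within slide 3, within slide 4, without sham animal 6 and blocked by slide, and dotted lines a 1.5-fold change. Only the interval of Hspa4 lies wholly on one side of 0, and only that of Dnaja1 crosses a dotted line.

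Slide was tested beside group. No gene passed the adjusted threshold of the limma F test of slide (0% called), and 2.7% had an unadjusted p under 0.05. Hsp90ab1 was the single chaperone gene of the list with such a value, an unadjusted p of 0.0220 and an adjusted p of 0.9998. Its mean was 3.50 on slide 1, 3.35 on slide 2, 3.38 on slide 3 and 3.08 on slide 4 (SD 0.13, 0.13, 0.17 and 0.31, n = 2, 2, 6 and 4 animals). Whether the exposed minus sham difference itself differed between slide 4 and slide 3 was tested by an interaction term over the 10 arrays of these slides. It passed the adjusted threshold for no gene (0% called), and 1.63% of genes had an unadjusted p under 0.05. The unadjusted limma p of the chaperones lay between 0.165 and 0.884. The Dnaja1 difference was larger on slide 4 by 0.59 (95% interval -0.29 to 1.47, unadjusted p = 0.165, adjusted p = 0.9899, limma).

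The chaperones differed in how much they varied between animals of a group. When the residual SDs of all 18611 genes were ranked, Hspa4 (0.11) stood at the 7.8th percentile, Hspa8 (0.12) at the 12.7th, Hsp90aa1 (0.15) at the 20.4th and Hspd1 (0.16) at the 26.7th. Hspa9 (0.19), Hspe1 (0.20) and Hsp90ab1 (0.23) lay between the 33.5th and 46.9th percentiles. Hsph1 (0.27, 55.6th) and Dnaja1 (0.30, 62.5th) were the most variable. Both have sham animal 6 as their lowest value, but so do the less variable Hspa8, Hspa9 and Hspd1.

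Levels of the chaperones were compared with each other over the 14 animals in 36 pairs of genes, which share the scaling of each array. Correlations were positive in 27 pairs and negative in 9, with a median r of 0.36. After Benjamini-Hochberg adjustment over the 36 pairs, 2 pairs were past the threshold by Pearson r. By rank, Hsph1 with Dnaja1 passed again, and so did Hspa4 with Dnaja1 (rho = 0.77, permutation p = 0.00151, adjusted p = 0.0272). The r of Hspa4 with Dnaja1 was 0.59 (permutation p = 0.0322, adjusted p = 0.0965). It was 0.56 without the 2 animals farthest from the median of Hspa4 and 0.70 without sham animal 6. Within exposed animals it was 0.78, but within sham animals only 0.20, and within slide 3 it was 0.70. Hsph1 and Dnaja1, the Hsp110 protein and the J-domain protein with a 3-unit element near the start site, had r = 0.92 (permutation p = 7e-05, adjusted p = 0.00252) and rho = 0.83 (permutation p = 0.00049, adjusted p = 0.0176). Their r was 0.65 without the 2 animals farthest from the median of Hsph1 and 0.81 without sham animal 6. It was 0.91 within exposed animals, 0.94 within sham animals and 0.93 within slide 3. Under normexp background correction, which starts from the median spot and background signals and adds an offset of 50, r was 0.13. The relation thus depends on the background correction, and the reason was not tested. The Hsph1 probe is dim.

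Hsph1 and Hspd1 formed the other pair, with r = 0.77 (permutation p = 0.00249, adjusted p = 0.0448) and rho = 0.53 (permutation p = 0.0520, adjusted p = 0.228). That relation rests on few animals: r was 0.45 without the 2 animals farthest from the median, 0.50 without sham animal 6 and -0.04 within slide 3. Hspd1 and Hspe1, whose transcripts start on either side of the shared 4-unit stretch shown above, had no correlation past the threshold over the 14 animals (r = -0.19, permutation p = 0.522, adjusted p = 0.648, and rho = 0.12, permutation p = 0.681). Their r was 0.53 without the 2 animals farthest from the median of Hspd1, 0.34 without sham animal 6 and 0.62 within slide 3. The Hsp90 genes had r = 0.08 (permutation p = 0.790, adjusted p = 0.837) and rho = 0.06 (permutation p = 0.844) with each other, and 0.16 without sham animal 6.

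**Figure D4:**
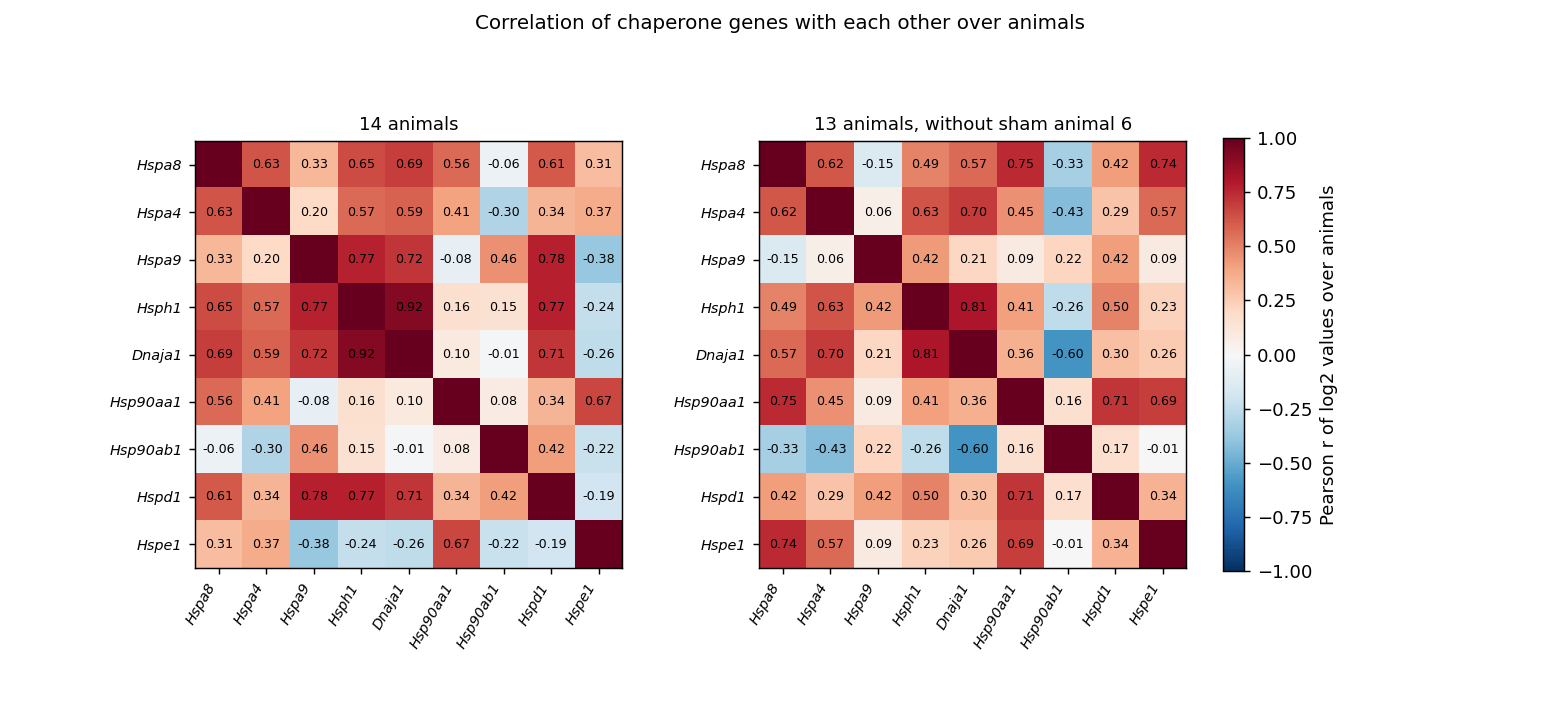
Pearson r of log2 values between the 9 chaperone genes over 14 animals (left) and over 13 animals without sham animal 6 (right). The r of Hsph1 with Dnaja1 is 0.92 and 0.81, while those of Hspa9 with Hsph1, Dnaja1 and Hspd1 drop from 0.77, 0.72 and 0.78 to 0.42, 0.21 and 0.42.

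Probes of the same gene were compared with each other in 4 genes. Hspa8 had 4 probes, and the brightest one, used above, had no correlation past the threshold with any of the others. The dimmer probes A_64_P096381 and A_64_P014723 had r = 1.00 with each other over the 14 animals (permutation p = 1e-05, the smallest that 100000 resamples can give, adjusted p = 5.5e-05; rho = 0.93). With the brightest probe A_64_P023392 each had r = 0.33 (adjusted p = 0.340 for both, rho 0.22 and 0.25), which was -0.22 without sham animal 6 and -0.91 and -0.92 within slide 3. On A_64_P096381, exposed animals gave 1.17, 1.80 and 1.98 (lowest, median, highest) and sham animals 0.13, 1.76 and 1.99. The sham value of 0.13 belonged to animal 6, and the next lowest sham value was 1.42. The exposed minus sham differences were 0.14 ± 0.08, -0.03 ± 0.12, 0.12 ± 0.26 and 0.12 ± 0.26 from the brightest to the dimmest probe, with unadjusted limma p of 0.0762, 0.791, 0.641 and 0.655 in a fit of all kept probes. Hspa8 has processed pseudogenes and close relatives in mammals, and which transcripts each probe binds was not tested, so the level of Hspa8 is uncertain.

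Hsp90aa1 had 3 probes, with differences of 0.03 ± 0.09, 0.20 ± 0.10 and 0.05 ± 0.08 (unadjusted p = 0.698, 0.0555 and 0.517, limma). Exposed animals 1 and 3 were highest on all 3 of them. Hsp90ab1 had 2 probes, with differences of -0.19 ± 0.12 and -0.06 ± 0.12 (unadjusted p = 0.147 and 0.628, limma). On the dimmer one, exposed animal 6 lay at 2.33 and not at the bottom, where sham animal 6 stood with 1.83. Hspe1 had 2 probes that followed each other (r = 0.92, permutation p = 1e-05, adjusted p = 5.5e-05, rho = 0.85, adjusted p = 0.00154), with differences of 0.11 ± 0.11 and 0.05 ± 0.11.

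**Figure D5:**
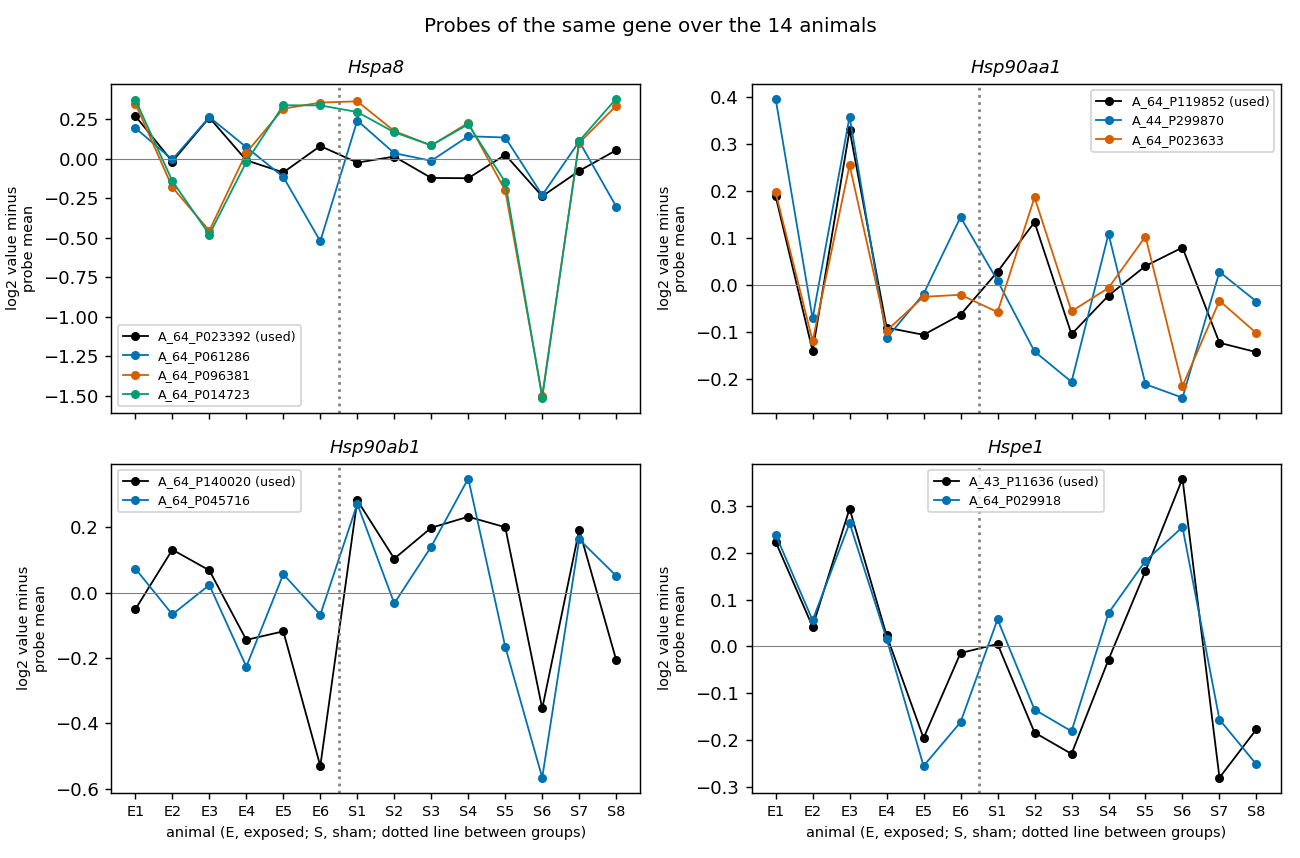
Log2 value of each probe minus its mean over the 14 animals, for the 4 chaperone genes with more than 1 probe, exposed animals (E) left of sham animals (S), with the probe used for the gene in black. Both Hspe1 probes move together, whereas the lower Hspa8 pair drops by about 1.5 in sham animal 6 and the brightest Hspa8 probe lies closer to its mean there.

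Relations of each gene with array signal and with marker scores for skeletal muscle, hair follicle and proliferating cells were computed over the 14 animals (36 relations, Benjamini-Hochberg adjusted together). Hspe1 was lower on brighter arrays: its r with the log2 75th percentile was -0.79 (permutation p = 0.00021, adjusted p = 0.00756) and rho was -0.76 (permutation p = 0.00253, adjusted p = 0.0911). That r was -0.58 without the 2 farthest animals and -0.72 without sham animal 6. It was -0.84 in exposed animals, -0.82 in sham animals and -0.76 within slide 3. With the score of 6 measured proliferation markers, Hspa9, Hsph1 and Dnaja1 had r of 0.75, 0.76 and 0.74 (permutation p = 0.00501, 0.00351 and 0.00551, adjusted p = 0.0496 each; rho 0.58, 0.50 and 0.42). Without the 2 farthest animals these r were 0.38, 0.25 and 0.17, and without sham animal 6 they were 0.44, 0.52 and 0.46. Their size over the 14 animals thus depends on those animals. Within exposed animals they were 0.67, 0.76 and 0.66, and within sham animals 0.87, 0.74 and 0.72. Within slide 3 they were 0.25, 0.18 and 0.12. No relation with the skeletal muscle or hair follicle score passed the threshold (adjusted p = 0.441 to 0.992). With log2 array signal as a covariate, the exposed minus sham differences were 0.11 for Hspe1 (unadjusted p = 0.132, limma) and 0.30 for Dnaja1 (unadjusted p = 0.0254, adjusted p = 0.875, limma). With the skeletal muscle score as a covariate, they were 0.10 for Hspe1, 0.35 for Dnaja1 and -0.22 for Hsp90ab1, and no gene passed the adjusted threshold in either fit. The part of the hair follicle and proliferating cell scores in the differences was not tested.

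The genes whose pattern was most like that of each chaperone were taken by Pearson r over the 14 animals among 11306 named genes. The list is a description that shares the scaling of the arrays. As the highest of 11306 values, these r are high partly by selection, and no chance level was computed. Dnaja1 and Hsph1 had the same nearest gene, Nfya, a subunit of the CCAAT-binding factor NF-Y (r = 0.97 and 0.93, and 0.92 and 0.85 without sham animal 6). A shared nearest gene is not separate from the r of 0.92 between Dnaja1 and the dim Hsph1 probe, which was 0.13 under normexp. Nearest genes were not computed under normexp. Ubxn8 and Colgalt1 came next for Dnaja1 (r = 0.92 each, and 0.77 and 0.80 without sham animal 6). For Hsph1, Mrpl49 and Cfl1 did (0.92 and 0.91, and 0.85 and 0.80 without sham animal 6). Within slide 3, r was 0.68 for Ubxn8, 0.15 for Colgalt1, 0.38 for Mrpl49 and 0.40 for Cfl1. For Nfya it was 0.89 with Dnaja1 and 0.80 with Hsph1 there. Nearest to Hspe1 were Cox17, a copper chaperone of cytochrome oxidase assembly, Sod1, the copper-zinc superoxide dismutase, and Mrps12, a mitochondrial ribosomal protein (r = 0.95 each, and 0.94 to 0.95 without sham animal 6). Hspa9 was nearest to Pnpt1, the polynucleotide phosphorylase of mitochondria, Paics, an enzyme of purine synthesis, and Rhbdd1 (r = 0.93 each, and 0.75 to 0.78 without sham animal 6).

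Hsp90ab1 was nearest to Actr1a, an actin-related subunit of dynactin, Adprh and Htr2a (r = 0.95, 0.92 and 0.90). Hspa8 was nearest to Ybey, Chid1 and Naa50 (r = 0.92, 0.89 and 0.88). For Hspa4 the nearest genes were Crem, a cAMP-responsive transcription factor, Tfb2m, a mitochondrial transcription factor, and Armt1 (r = 0.88, 0.88 and 0.87). Hsp90aa1 had Cyb561d2, Acot8 and Noc4l (r = 0.87, 0.86 and 0.86), and Hspd1 had Abhd1, Pdp2 and Myc (r = 0.91, 0.89 and 0.88, and 0.79, 0.74 and 0.83 without sham animal 6). For the 3 nearest genes each of Hspa8, Hspa4, Hsp90aa1 and Hsp90ab1, r lay between 0.86 and 0.95 without sham animal 6. Without the 2 animals farthest from the median of the chaperone, r was lower for some. It then ran from 0.70 (Hsp90aa1 with Noc4l) to 0.91 (Hsp90ab1 with Actr1a). None of the nearest genes of one chaperone was another's except Nfya.

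Other genes of the chaperone network gave no call either. In 7 lists of 85 genes, 73 were measured, 40 were higher and 33 lower in exposed skin by the mean, and none passed the adjusted threshold (0% called) or had an unadjusted p under 0.05, which 3.42% of all genes had. Among other Hsp70 and Hsp110 genes, 2 of 6 measured were higher, and the smallest p belonged to Hspa4l (-0.12 ± 0.08) and Hspa14 (0.08 ± 0.08). The inducible Hsp70 genes Hspa1a and Hspa1b had no matched probe here. Of other J-domain genes, 7 of 11 were higher, and the smallest p were those of Dnajb12 (-0.11 ± 0.08) and Dnajb6 (-0.11 ± 0.10). Of 10 exchange factors and regulators of Hsp70, 5 were higher. St13, which binds Hsp70 in its ADP form, had 0.28 ± 0.21, and Tomm34 had -0.08 ± 0.06.

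Of 16 measured Hsp90 co-chaperones, 9 were higher. Sugt1, which links Hsp90 to immune receptors and the kinetochore, had 0.14 ± 0.07 (unadjusted p = 0.0644, limma), and Chordc1 had 0.14 ± 0.07 (unadjusted p = 0.0732, limma). Chordc1 is one of 2 genes of these lists whose window holds a 3-unit element; the other, the chaperonin subunit Cct4, had 0.08 ± 0.20 and is named here for its promoter. Mitochondrial chaperones and proteases split 8 higher to 6 lower, with Trap1, the mitochondrial Hsp90, at -0.12 ± 0.08 and the protease Htra2 at -0.05 ± 0.06. In the chaperonin TRiC and prefoldin list, 7 of 12 were higher, with Pfdn2 at 0.15 ± 0.09 and Cct3 at -0.07 ± 0.07. Of the heat shock factors and their regulators, 2 of 4 measured were higher. Hsf4 had -0.19 ± 0.09 (unadjusted p = 0.0601, limma), the HSF1 inhibitor Hsbp1 had 0.10 ± 0.06, and Hsf1, chosen after its value was seen, had 0.02 ± 0.06.

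Across the measured genes whose promoter window holds a 3-unit heat shock element, 18 of 41 were higher and 23 lower in exposed skin, beside 43% higher over all genes. Their median difference was -0.02, the same as the median of all genes to this precision, and none passed the adjusted threshold. The 41 genes include Hspa8, Hsph1, Dnaja1, Hspd1, Hspe1, Chordc1 and Cct4, so they are not separate from the genes above.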

How the data were processed

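Per the file headers, Agilent Feature Extraction 10.7.3.1 gave the spot intensity values, with background removed and no scaling across arrays. The authors also deposited log2 values of 15168 probes, centred per probe on the median over arrays, by a normalization that the labels and headers do not state. Across probes, each column had r of 1.00 with own quantile-normalized signals of that array, which settled its scale and direction, and r of 0.90 to 0.99 with the scaling used here. Its column medians lay between -0.0086 and 0.012.

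Control spots (4259 of 62976) were left out. Flagged spots were left out of the probe averages but not of the 75th percentile. On single arrays, 30 probe values with every spot flagged kept their flagged value. The log2 processed signal minus the 75th percentile of its array was averaged over spots of a probe. Probes well above background on at least 6 arrays were kept, and the brightest kept probe stood for a gene. Accessions were matched without version to a RefSeq table of assembly GRCr8, which named 17998 of 30367 probes (59.27%). Since the array design refers to another assembly, coordinates are given only for RefSeq promoter stretches.

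The test was limma's moderated test (version 3.58.1, R 4.3.3, two-sided, Benjamini-Hochberg over all genes). Correlations over animals were tested by 100000 two-sided permutations (SciPy 1.17.1). A marker score averages the gene-centred log2 values of its markers. Genes named were the 10 members, the 2 with the smallest p of each pathway list, the 3 nearest to each member and fixed markers. The members, lists and tests were chosen with earlier results of these data known. On simulated data with 200 changed genes, 61.2% of 1.5-fold, 79.1% of 2-fold and 95.5% of 3-fold changes were called. The rate holds for that many changed genes and for normal noise drawn independently for each gene and array. The simulation held no slide effect and no array set apart like that of sham animal 6. It therefore does not give the power of the comparison of real arrays. Groups follow the treatment label and slides the array codes in the titles. Alternatives covered background correction, normalization, probe filter and choice, slide, weights, covariates and leaving out each animal. The number of arrays limits the precision.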

Additional observations from a re-analysis of the deposited data

Results flagged for a closer look

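Each measure was examined in the exposed and in the sham animals, 40 sets of values in all. In 9 of them, 1 sham animal stood apart from the other 7 by Dixon's 95% limit. Chance gives about 1 in 20 for a single set. The sets share arrays and scaling and are not independent, so the count cannot be set against that rate. Sham animal 3 was low for Hspa4 (0.80), and without it the exposed minus sham difference of Hspa4 was 0.15. The other 8 were all sham animal 6, whose array had the lowest 75th percentile (9.65 on the log2 scale). It was low for Hspa9 (-1.52), Hsph1 (-4.84), Dnaja1 (1.02) and Hspd1 (2.41), for the Hspa8 probes A_64_P096381 (0.13) and A_64_P014723 (-0.97), and for the proliferating cell score (-0.43). No exposed animal stood apart in this way.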

How the results depend on the processing

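No gene passed the adjusted threshold for exposed against sham in the 27 other settings, and the count of genes with an unadjusted p under 0.05 lay between 294 (within slide 4) and 2365 (array weights), beside 636 of 18611. With array weights, 4 of the 9 chaperones (Hspa4, Dnaja1, Hsp90ab1 and Hspe1) had an unadjusted limma p under 0.05, beside 2365 of 18611 genes. In no other setting did more than 2 chaperones. Of 242 differences of single chaperones in other settings, 224 kept their sign and 18 did not, and the smallest adjusted p was 0.246 (Hspa4, array weights). Hspa8, Hspa4, Hsph1, Dnaja1, Hsp90ab1 and Hspe1 kept their sign in every setting run. Except with the mean of all probes, the Hspa8 value came from its brightest probe. By itself, the next brightest Hspa8 probe, A_64_P061286, gave -0.03, and A_64_P096381 and A_64_P014723 gave 0.12 each. Hspd1, at 0.00, was 0.013 with quantile normalization, 0.013 in the authors' deposited table, 0.018 with slide as a block, 0.18 within slide 4, 0.0037 with the skeletal muscle score as a covariate, and -0.063 to 0.034 when each animal was left out. Hspa9 was -0.11 within slide 3, -0.019 with array weights and -0.032 to 0.077 when each animal was left out. Hsp90aa1 was -0.0012 within slide 4 and -0.028 to 0.066 when each animal was left out. The median of the 9 differences lay between 0.047 (without sham animal 6) and 0.18 (within slide 4), and 6 to 8 of the 9 genes were higher in exposed skin.

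Correlated pairs past the threshold numbered 0 with normexp, 11 with quantile normalization, 6 in the authors' deposited table (which lacks Hsph1), 10 with the mean of all probes of a gene, and 1 to 6 when each animal was left out, beside 2. Hsph1 with Dnaja1 was past it in 14 of 14 such repeats and Hsph1 with Hspd1 in 6 of 14. For the difference between slides of the exposed minus sham difference, 2 genes passed with quantile normalization and 2 in the authors' deposited table, and 1 gene passed for slide without the filter on dim probes. The cause was not tested. The settings without sham animal 6 and without sham animal 3 use 7 sham animals. The fit of every kept probe by itself and the correlations between probes of 1 gene were chosen after seeing the data. No paired analysis was possible because the labels give no replicate numbers, and Dnajb1 has no value in any setting.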
